A study of Mus musculus with 7 samples.

Results

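The carrier proteins of blood plasma are made largely by hepatocytes, and 10 of their genes are described here: Alb, Ttr, Rbp4, Gc, Ahsg, Hpx, Ambp, Azgp1, Serpina6 and Trf. They were taken by name, and all 10 were among the 19951 gene targets measured and among the 13095 genes tested. RNA was counted in 6 areas of fixed mouse liver at an age of 24 weeks, 3 in the FFD group and 3 in the NCD group, diets that the labels give only by these letters. The region comments in the segment table mark all 6 areas as WT, and a single slide held them. The areas were drawn on albumin staining and are listed as negative for CLEC4F, a marker of Kupffer cells, the resident macrophages of liver. The series text gives 3 mice per diet without tying an area to a mouse, so the p-values measure the spread between these areas. In such bulk areas, fewer hepatocytes and less RNA per hepatocyte cannot be told apart.

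Hepatocytes export these proteins through the endoplasmic reticulum and the Golgi into blood, where each carries or captures a ligand that would otherwise be lost, harmful or insoluble. Albumin carries fatty acids, bilirubin and hormones and sets most of the colloid osmotic pressure of plasma. In inflammation the liver raises some plasma proteins and lowers others. Albumin and transthyretin are classically among those lowered, and in mice hemopexin, haptoglobin and fibrinogen are among those raised.

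Hpx, which encodes the haem scavenger hemopexin, rose 1.81-fold in FFD areas and was the only one of the 9 carrier genes other than Alb to pass the test. Alb itself was lower in every FFD area than in every NCD area. Because albumin staining chose the areas, its difference is described here and not counted as a result. Ttr, Rbp4, Gc, Ahsg, Ambp, Azgp1, Serpina6 and Trf did not pass. The count of 1 of 9 higher stands beside 5.94% of all tested genes called higher in FFD, and the count of 0 of 9 lower beside 11.1% called lower (edgeR quasi-likelihood test, adjusted p under 0.05). Among the 9, 2 had an unadjusted p under 0.05, Hpx and Serpina6.

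**Figure D1:**
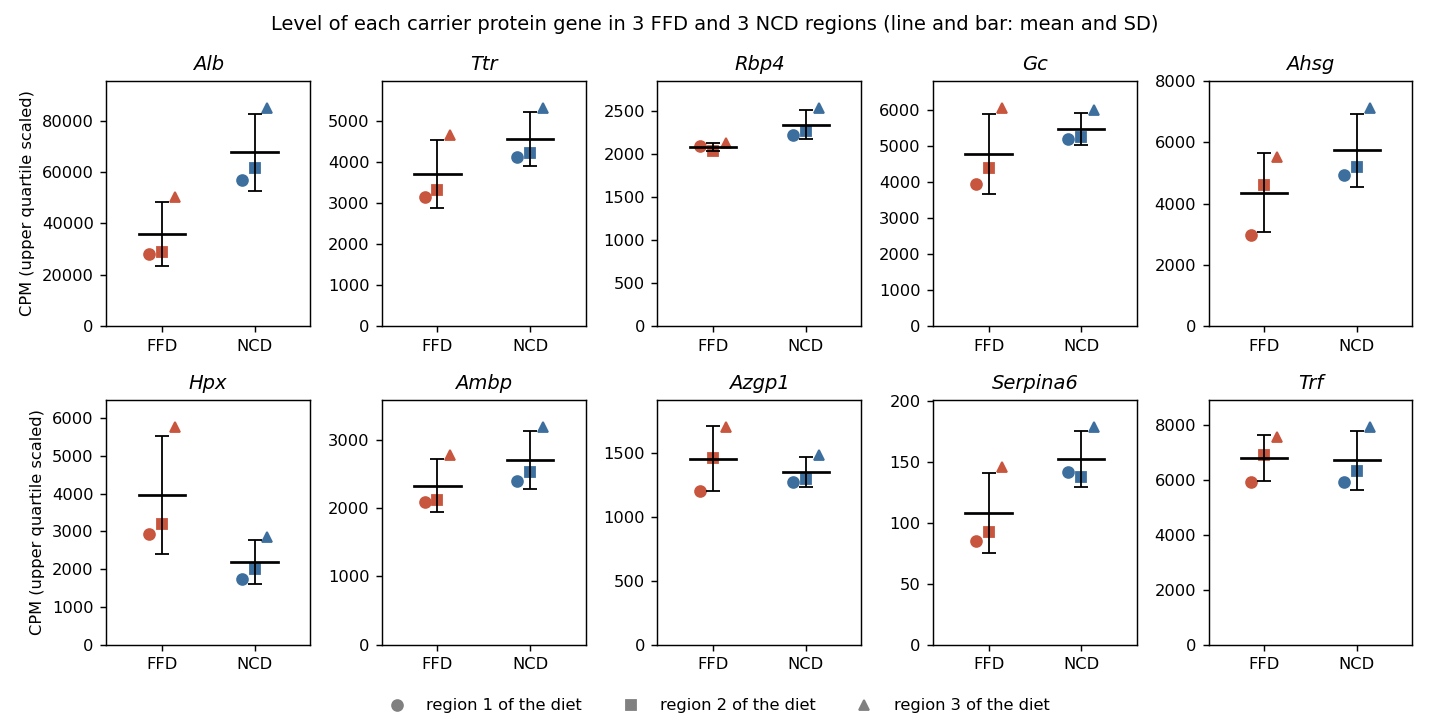
Level of each of the 10 genes on the y axis, in CPM, in 3 FFD areas (red, left) and 3 NCD areas (blue, right), with the mean as a line and the SD as a bar. Hpx lies at 2920 to 5775 CPM in FFD areas, above all NCD areas, and Alb at 27971 to 50062 CPM, below all NCD areas.

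Levels are given in CPM, counts brought to a library total of 1000000 after scaling each area to the 75th percentile of its gene counts. Counts over all gene targets ran from 2714026 to 3239733 in FFD areas and from 2300428 to 3808034 in NCD areas. Each of the 10 genes was read by 1 probe and lay at least 7.81 times above the level of the negative probes in every area. Probes differ in how well they bind, so levels are compared between areas and not between genes. All 9 tested hepatocyte markers were above the detection limit, 2 times the negative probe level, in all 6 areas. With the carriers Alb and Ttr among them, they summed to 44615 to 72462 CPM in FFD areas and 83811 to 119896 CPM in NCD areas. These sums, mostly Alb, did not overlap, and 3 of the 9 markers were called lower in FFD. Genes of other cells were present too. The summed level of 12 Kupffer cell and macrophage markers was 1793 to 2434 CPM in FFD areas and 1074 to 1419 CPM in NCD areas, with 7 called higher and 1 lower. The 9 tested markers of lipid-associated macrophages summed to 1062 to 1670 CPM in FFD areas and 293 to 417 CPM in NCD areas (8 higher), with Ccr2 never above the limit. The 13 stellate cell and fibroblast markers summed to 1249 to 2108 CPM in FFD areas and 728 to 752 CPM in NCD areas (9 higher). The 3 tested cholangiocyte markers summed to 225 to 1005 CPM in FFD areas and 78.3 to 107 CPM in NCD areas (1 higher), and the 8 tested sinusoidal endothelial markers to 340 to 440 CPM in FFD areas and 411 to 454 CPM in NCD areas (1 higher, 1 lower). Of 10 lymphocyte markers, Cd3d, Cd4, Cd79a and Cd79b were above the limit in no area. Beside these marker calls, 5.94% of all tested genes were called higher in FFD and 11.1% lower. The part of these cell types in the values below was not tested.

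Alb (gene ID 11657, GRCm38 chromosome 5, 90460870 to 90476602) gave the highest count of all gene targets in each of the 6 areas. Its level was 27971, 28938 and 50062 CPM in FFD areas 1 to 3, against 56816, 61524 and 84772 CPM in NCD areas 1 to 3. FFD area 3 was the nearest to the NCD areas and lay 1.79-fold above the lowest FFD area. The fitted log2 fold change was -0.93 (SE 0.33), and it stayed between -1.25 and -0.73 when any 1 area was left out. As a share of all gene counts, Alb took 3.38 ± 1.03% in FFD areas and 5.88 ± 1.07% in NCD areas (SD, n = 3 each), again without overlap. Counted per nucleus the diets overlapped, at 81.3 ± 20.2 Alb counts in FFD areas and 96.4 ± 38.2 in NCD areas. The promoter is shown because it is a classic model of liver transcription. It spans 250 bases before to 50 bases after the annotated start (RefSeq, GRCm38.p6, plus strand, chr5:90460620-90460919). Capitals mark exact matches on either strand to TTATGTAA, a D box sequence, to CCAAT, and to GTTAAT, the core of the HNF1 site. Dbp and its relatives bind D boxes. Sites that differ by any base stay in small letters, so the capitals do not map the known binding sites of Alb.

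Alb promoter: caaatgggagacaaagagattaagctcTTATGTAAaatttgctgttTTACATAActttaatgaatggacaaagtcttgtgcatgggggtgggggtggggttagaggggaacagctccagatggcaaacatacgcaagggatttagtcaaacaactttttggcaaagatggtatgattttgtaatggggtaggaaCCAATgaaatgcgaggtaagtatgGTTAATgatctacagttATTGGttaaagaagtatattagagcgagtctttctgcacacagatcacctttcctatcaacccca

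Windows were looked up for 9 carrier genes, not for Ttr, and found for 7. CCAAT on either strand was in a window of each of these 7. In the Alb window the D box letters occur 2 times, CCAAT 2 times and GTTAAT 1 time, the last beginning 32 bases before the start. The D box letters occur in 0.938% of all 32851 promoter windows of this length in the table, GTTAAT in 7.10% and CCAAT in 37.4%. A match is a description of the letters and does not show that a factor was bound. Of 18 genes for factors of the albumin promoter and their families, none was called higher in FFD and 3 were called lower, against 5.94% higher and 11.1% lower over all tested genes. The CCAAT-binding subunit Nfyb was at 75.1 ± 8.25 CPM in FFD areas and 123 ± 6.09 CPM in NCD areas, or -0.71 on the log2 scale (SE 0.13, adjusted p 0.00200, lost with negative probe scaling at 0.140). The nuclear receptor Hnf4a, which maintains hepatocyte identity, was at -0.51 (SE 0.14, adjusted p 0.0207), and its call was lost in 10 of 18 alternatives. Foxa3, a forkhead factor, was at -0.47 (SE 0.15, adjusted p 0.0475) and kept its call in 3 of 18. The median of the 18 genes was -0.05, against -0.11 over all tested genes.

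Gc encodes the vitamin D-binding protein, which also binds actin released from damaged cells, and belongs to the albumin gene family (gene ID 14473, chromosome 5, 89417511 to 89457898). It was at 3929, 4367 and 6035 CPM in FFD areas, against 5183, 5232 and 5983 CPM in NCD areas. FFD area 3 held the highest value of all 6, so the diets overlapped. The log2 fold change of -0.19 (SE 0.21, adjusted p 0.556) missed the threshold. Within each area the ratio of Gc to Alb counts, which no scaling between areas can alter, was 0.140, 0.151 and 0.121 in FFD areas and 0.0912, 0.0850 and 0.0706 in NCD areas. Every FFD ratio was above every NCD ratio, by 0.74 on the log2 scale (exact two-sided permutation test p = 0.1, adjusted p 0.15 over 3 ratios). With 3 areas per diet 0.1 is the smallest p this test can give, and the ratio holds Alb, whose staining chose the areas. Afm, which encodes the vitamin E carrier afamin of the same family, was at 362, 205 and 353 CPM in FFD areas and 452, 530 and 563 CPM in NCD areas. It fell by 0.75 on the log2 scale (SE 0.19, adjusted p 0.0159). Without FFD area 2, its lowest value, the call was lost, as it was without NCD area 2 and with negative probe scaling (adjusted p up to 0.143).

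The Gc promoter is set beside that of Alb as the other promoter with a GTTAAT match among the 7 carrier genes with a window examined (RefSeq, GRCm38.p6, minus strand, chr5:89457849-89458148, capitals as for Alb).

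Gc promoter: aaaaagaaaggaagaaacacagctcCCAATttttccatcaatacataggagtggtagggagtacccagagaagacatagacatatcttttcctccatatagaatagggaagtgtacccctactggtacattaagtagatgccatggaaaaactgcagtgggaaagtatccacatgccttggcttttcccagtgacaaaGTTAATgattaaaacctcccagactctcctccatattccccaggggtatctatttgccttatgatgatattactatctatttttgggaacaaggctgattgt

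Around Gc, the vitamin D genes Cyp2r1 and Cyp27a1, both liver hydroxylases that act on the side chain of sterols and vitamin D, fell in FFD. Cyp2r1 was at 29.1 ± 6.0 CPM in FFD areas and 55.9 ± 3.84 CPM in NCD areas (log2 -0.95, SE 0.15, adjusted p 7.10e-04). Cyp27a1 was at 105 ± 21.2 CPM in FFD areas and 168 ± 4.97 CPM in NCD areas (log2 -0.67, SE 0.15, adjusted p 0.00753), a call lost with negative probe scaling (adjusted p 0.264). Of the 7 genes listed 3 were tested and 2 of these fell, against 11.1% of all tested genes. The third, the endocytic adaptor Dab2, was at -0.36 and did not pass.

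Hpx (gene ID 15458, chromosome 7, 105591611 to 105600116) encodes the plasma protein that binds free haem and delivers it to the liver. Its level was 2920, 3198 and 5775 CPM in FFD areas 1 to 3, against 1727, 1994 and 2850 CPM in NCD areas 1 to 3. The diets did not overlap, but the lowest FFD area lay just above the highest NCD area. The log2 fold change was 0.86 (SE 0.26, adjusted p 0.0354). Hpx passed in 13 of 18 alternatives, with log2 fold changes from 0.48 to 1.22, all positive. The call was lost without FFD area 3 (0.48, adjusted p 0.142), without NCD area 1 (0.71, 0.166) and without NCD area 2 (0.79, 0.155). It was also lost with the DESeq2 Wald test and after background subtraction (adjusted p 0.119 and 0.225). Within areas, the ratio of Hpx to the sum of the other 8 carriers beside Alb was 0.136, 0.128 and 0.189 in FFD areas and 0.0660, 0.0732 and 0.0844 in NCD areas. This ratio, chosen after its values were seen, was 1.01 higher in FFD on the log2 scale, and between 0.83 and 1.11 with any 1 area left out.

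The Hpx promoter is shown as that of the one carrier that rose (RefSeq, GRCm38.p6, minus strand, chr7:105600067-105600366). Capitals mark CCAAT on either strand and TATAA, the core of the TATA box, which begins 27 bases before the start. TATAA occurs in 24.9% of all windows.

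Hpx promoter: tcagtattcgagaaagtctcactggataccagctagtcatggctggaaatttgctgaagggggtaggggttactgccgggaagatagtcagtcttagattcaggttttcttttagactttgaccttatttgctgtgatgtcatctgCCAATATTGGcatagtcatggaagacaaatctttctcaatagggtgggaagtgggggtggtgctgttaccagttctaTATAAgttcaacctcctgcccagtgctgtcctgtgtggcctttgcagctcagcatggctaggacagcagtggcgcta

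Neither the D box nor GTTAAT letters are in this window.

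Hp encodes haptoglobin, which binds free haemoglobin, and it rose in FFD as Hpx did. It was at 2904, 3813 and 6196 CPM in FFD areas and 1493, 1553 and 1813 CPM in NCD areas (log2 1.41, SE 0.25, adjusted p 0.00132). As for Hpx, FFD area 3 was the highest of all 6, and Hp kept its call in 18 of 18 alternatives. Cd163, the macrophage receptor for haptoglobin bound to haemoglobin, fell (adjusted p 1.69e-04). It was at 17.9, 6.23 and 8.83 CPM in FFD areas, all under the detection limit, and 39.9, 41.2 and 36.1 CPM in NCD areas. The size of its fall is uncertain, with log2 fold changes of -4.85 to -1.47 over 18 alternatives. Blvra, a biliverdin reductase, was at 33.4 ± 1.31 CPM in FFD areas and 24.7 ± 0.548 CPM in NCD areas (log2 0.44, SE 0.14, adjusted p 0.0447), under the limit in all NCD areas and called in 10 of 18 alternatives. The other 5 of the 8 genes of haem and haemoglobin clearance did not pass. Among them were the hemopexin receptor Lrp1 at 0.00 (SE 0.14) and the haem oxygenase Hmox1 at 0.52 (SE 0.23, adjusted p 0.120). Thus 2 of the 8 genes rose and 1 fell, beside 5.94% higher and 11.1% lower over all tested genes.

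Ambp encodes a precursor that is cut into alpha-1-microglobulin, which also takes up haem, and bikunin, a protease inhibitor (gene ID 11699, chromosome 4, 63143275 to 63154172). Unlike Hpx it did not pass, at 2101, 2121 and 2787 CPM in FFD areas and 2399, 2542 and 3200 CPM in NCD areas (log2 -0.22, SE 0.19, adjusted p 0.458). The ratio of Ambp to Hpx counts was 0.719, 0.663 and 0.483 in FFD areas and 1.39, 1.27 and 1.12 in NCD areas. It was lower in every FFD area than in every NCD area, by -1.04 on the log2 scale (exact two-sided permutation test p = 0.1, adjusted p 0.15 over 3 ratios). Bikunin is joined to the heavy chains of inter-alpha-inhibitor, and of these Itih2 fell by 0.70 (SE 0.16, adjusted p 0.00951). Itih2 was at 448 ± 90.0 CPM in FFD areas and 729 ± 44.0 CPM in NCD areas, and its call was lost without NCD area 2 and with negative probe scaling (adjusted p up to 0.229). Of the 7 genes of fetuin and inter-alpha-inhibitor partners 2 fell and none rose, with a median of -0.25. All tested genes had 11.1% lower, 5.94% higher and a median of -0.11. The chains Itih1, Itih3 and Itih4 were at -0.51, -0.20 and 0.17 and did not pass.

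Ttr and Rbp4 encode partners of one circulating complex, in which transthyretin, also a carrier of thyroxine, holds the retinol-binding protein back from filtration in the kidney. Ttr (gene ID 22139, chromosome 18, 20664209 to 20674326) was at 3135, 3309 and 4650 CPM in FFD areas and 4117, 4230 and 5310 CPM in NCD areas. The diets overlapped, and the log2 fold change was -0.30 (SE 0.21, adjusted p 0.338). Rbp4 (gene ID 19662, chromosome 19, 38116620 to 38125321) was the least variable carrier among FFD areas, at 2088, 2032 and 2120 CPM, against 2212, 2268 and 2528 CPM in NCD areas. All FFD areas lay below all NCD areas, yet the gap was small, at -0.17 on the log2 scale (SE 0.17, adjusted p 0.515). Over all tested genes 24.5% showed FFD areas below NCD areas without overlap and 12.2% showed them above. With negative probe scaling, which moved the median of all genes to 0.28 from -0.11, the log2 fold changes of Ttr, Rbp4, Gc and Ambp turned to 0.08, 0.22, 0.19 and 0.16. The ratio of Rbp4 to Ttr was 0.666, 0.614 and 0.456 in FFD areas and 0.537, 0.536 and 0.476 in NCD areas, and these overlapped (log2 difference 0.15, exact two-sided permutation test p = 0.5, adjusted p 0.5 over 3 ratios).

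Of 10 tested genes of retinoid handling none passed. Lrat, which esterifies retinol for storage in stellate cells, was at 37.2 ± 8.21 CPM in FFD areas and 27.8 ± 3.99 CPM in NCD areas (log2 0.43, SE 0.18, adjusted p 0.110). On the thyroid side 2 of 7 genes rose and none fell, against 5.94% higher and 11.1% lower over all tested genes. Serpina7 encodes thyroxine-binding globulin, the other main carrier of thyroxine, and was at 126, 214 and 170 CPM in FFD areas, against 56.4, 50.0 and 51.4 CPM in NCD areas. It rose by 1.70 (SE 0.18, adjusted p 1.33e-05). Dio1, the deiodinase that converts thyroxine to its active form, was at 124 ± 26.2 CPM in FFD areas and 66.5 ± 10.2 CPM in NCD areas (log2 0.89, SE 0.16, adjusted p 0.00212). Both kept their calls in 18 of 18 alternatives.

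Serpina6 encodes corticosteroid-binding globulin, the plasma carrier of glucocorticoids (gene ID 12401, chromosome 12, 103646630 to 103657218), and gave the fewest counts of the 10 probes. It was at 85.0, 92.9 and 146 CPM in FFD areas, against 141, 138 and 179 CPM in NCD areas. FFD area 3 reached into the NCD range while the other FFD areas lay below it. The log2 fold change of -0.51 (SE 0.19, adjusted p 0.0699) missed the threshold. Without FFD area 3 it was -0.78 and passed (adjusted p 0.00334). Of 8 tested genes of glucocorticoid handling 3 fell and none rose, against 11.1% lower and 5.94% higher over all tested genes. Tat, a classic glucocorticoid-induced aminotransferase, was at 575 ± 166 CPM in FFD areas and 1391 ± 266 CPM in NCD areas (log2 -1.27, SE 0.21, adjusted p 9.50e-04). The steroid reductases Srd5a1 and Akr1d1 fell by 0.76 (SE 0.12, adjusted p 8.26e-04) and 0.61 (SE 0.14, adjusted p 0.00974). The call of Akr1d1 was lost without FFD area 2, and both calls with negative probe scaling (adjusted p 0.0886 for Srd5a1 and 0.314 for Akr1d1). The other 5 genes did not pass, and they leaned both ways. The glucocorticoid receptor Nr3c1 was at -0.20 (SE 0.13) and Hsd11b1 at -0.54 (SE 0.18). Fkbp5 was at 0.24 (SE 0.16), Tsc22d3 at 0.27 (SE 0.24) and Per1 at 0.16 (SE 0.16).

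Ahsg encodes fetuin-A, which keeps calcium phosphate in solution and binds the insulin receptor (gene ID 11625, chromosome 16, 22892015 to 22899451). It was at 2962, 4613 and 5511 CPM in FFD areas and 4937, 5192 and 7115 CPM in NCD areas. The FFD areas spanned 1.86-fold, the widest range of any carrier after Hpx, and overlapped the NCD areas. The log2 fold change was -0.40 (SE 0.24, adjusted p 0.269). The related Fetub, a protease inhibitor, was at 128, 209 and 252 CPM in FFD areas and 297, 331 and 404 CPM in NCD areas, and fell by 0.81 (SE 0.20, adjusted p 0.0139), a call also lost with negative probe scaling.

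Trf encodes transferrin, the carrier of iron (gene ID 22041, chromosome 9, 103208876 to 103230286). It was at 5939, 6914 and 7580 CPM in FFD areas and 5918, 6321 and 7954 CPM in NCD areas, nearly the same range. The log2 fold change was 0.02 (SE 0.21, adjusted p 0.967). Of 8 genes of transferrin iron uptake only Tfr2, the transferrin receptor of hepatocytes that senses iron, passed. It was at 54.1, 53.3 and 81.9 CPM in FFD areas and 89.9, 98.4 and 143 CPM in NCD areas (log2 -0.82, SE 0.19, adjusted p 0.00915), a call lost with negative probe scaling. Tfrc, the general transferrin receptor, was at 0.34 (SE 0.18) and did not pass. The 1 gene of 8 called lower stands beside 11.1% of all tested genes.

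Azgp1 encodes zinc-alpha-2-glycoprotein, a lipid-binding protein with the fold of MHC class I (gene ID 12007, chromosome 5, 137981521 to 137990233). It was at 1203, 1463 and 1708 CPM in FFD areas and 1275, 1299 and 1488 CPM in NCD areas. FFD areas held the lowest and the highest of the 6 values. The log2 fold change was 0.11 (SE 0.17, adjusted p 0.708), and it turned to -0.02 without FFD area 3.

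**Figure D2:**
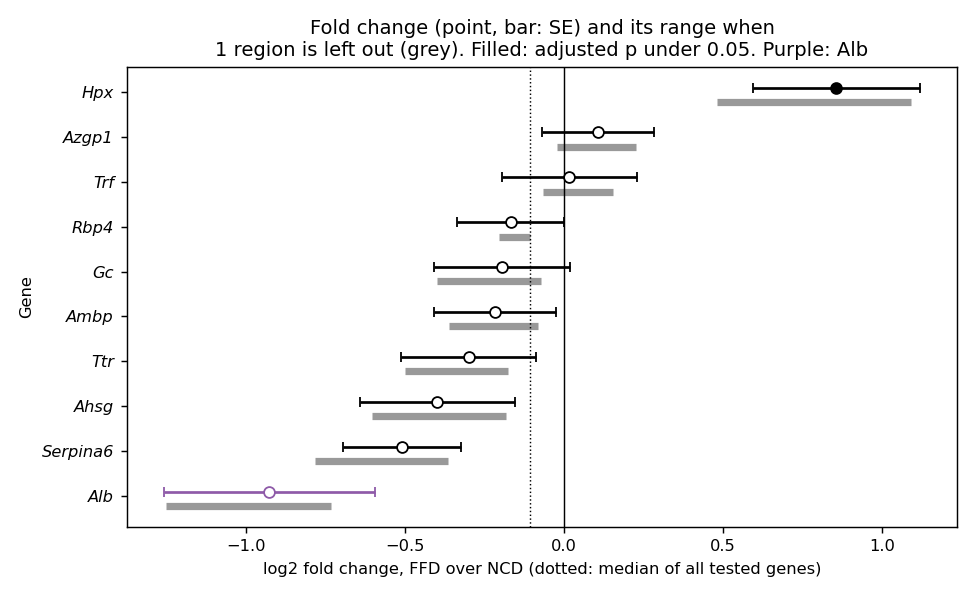
Log2 fold change of FFD over NCD on the x axis for each of the 10 genes (rows), with the SE as a bar, a filled point where the adjusted p was under 0.05, Alb in purple, and in grey the range when any 1 area was left out. Hpx at 0.86 is the only filled point, Alb at -0.93 is at the other end, and the grey ranges of Azgp1 and Trf cross 0.

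The 10 genes shared a pattern within each diet. In all 10, area 3 of the FFD group was the highest of its diet and area 3 of the NCD group the highest of its own. Area 3 was the highest in both diets in 12.3% of all tested genes. The pattern was not particular to the carriers. Hp, Fga, Fgg, Fgb and every gene of the fetuin and inter-alpha-inhibitor partners showed it too. Other plasma protein genes did not, as Serpina3k and Serpina7 were highest in FFD area 2 among FFD areas. The gap between the highest and the lowest area of a diet had a median over the 10 genes of 1.51-fold in FFD and 1.32-fold in NCD, against 1.26-fold in FFD and 1.25-fold in NCD over all tested genes. The other cell types differed among the FFD areas as well. FFD area 3 had the lowest summed level of stellate cell, lipid-associated macrophage and cholangiocyte markers of the 3 FFD areas, and the highest of Kupffer cell and macrophage markers. The summed hepatocyte markers were highest in area 3 of both diets. They were at 44635, 44615 and 72462 CPM in FFD areas 1 to 3 and 83811, 89573 and 119896 CPM in NCD areas 1 to 3. This sum is no separate measure, since it includes the carriers Alb and Ttr and is mostly Alb. Alb made up 27971 CPM of it in FFD area 1 and 84772 CPM in NCD area 3. Area 3 also held the most nuclei (1264 in FFD, 1940 in NCD) and the most deduplicated reads (2694300 in FFD, 3819511 in NCD) of its diet. By counts NCD area 3 was the deepest of the 6, while FFD area 3 had fewer than FFD area 2. The part of cell types and depth in the carrier values of area 3 was not tested. Without both of these areas, a setting added after seeing the data, Hpx stayed called and Serpina6 was called lower (-0.65, adjusted p 0.00401).

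By the root mean square difference of log2 levels over the 6 areas, each centred on the gene's mean, the closest pair of carriers was Ttr and Ambp (0.07). The next were Ttr and Gc (0.07) and Azgp1 and Trf (0.08). Hpx and Alb were the farthest apart (0.89). Among the other carriers Serpina6 was nearest to Alb (0.23, place 37 of all tested genes), followed by Ahsg (0.33) and Ttr (0.34). Outside the carriers the 5 genes nearest to Alb were Fga (0.04), Fgg (0.07), Fgb (0.10), Tfr2 (0.11) and Gnmt (0.11). Fga, Fgg and Fgb encode the chains of fibrinogen, and Gnmt a glycine methyltransferase. The fibrinogen chains were each called lower in FFD, whereas Hpx and Hp were called higher. Their calls held in 18 of 18 alternatives for Fgb, 12 for Fga and 9 for Fgg. Fga was at 1328, 1417 and 2314 CPM in FFD areas and 2614, 2732 and 3895 CPM in NCD areas, low in FFD areas 1 and 2 and highest in NCD area 3 as Alb was. The log2 fold changes of the 5 ran from -1.12 for Fgb to -0.82 for Tfr2, which follows from choosing them by likeness to Alb. This likeness rests on 6 areas that share slide and probe set.

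**Figure D3:**
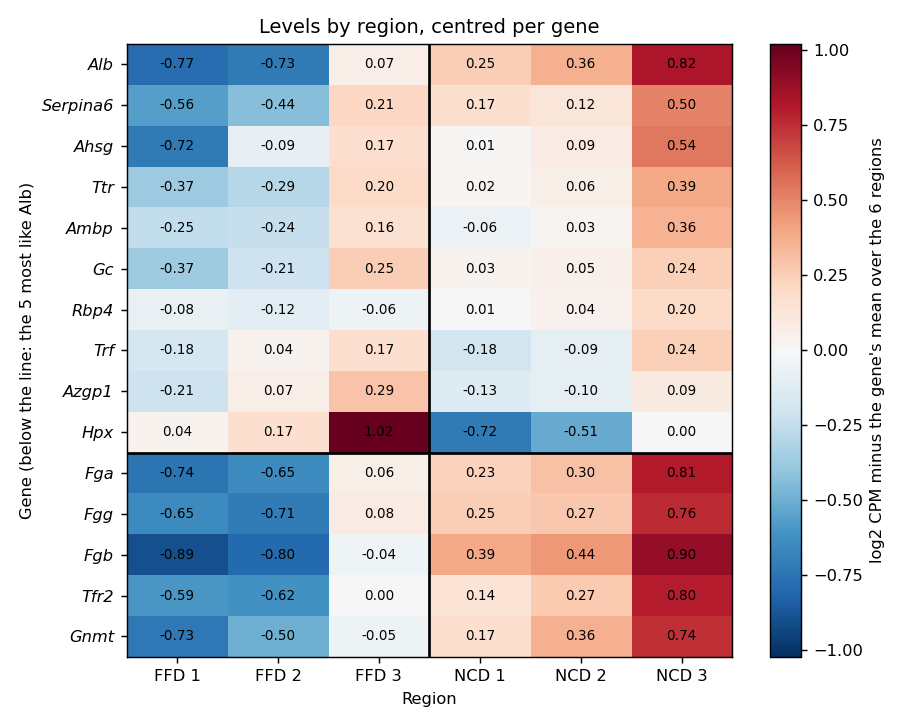
Log2 CPM minus the gene's mean over the 6 areas (colour and printed number), with the areas as columns, FFD left of NCD, the 10 carriers above the black line and the 5 genes most like Alb below it. Alb and the 5 genes below share low values in FFD 1 and FFD 2 and the highest value in NCD 3, whereas Hpx peaks in FFD 3 at 1.02.

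The 10 genes together took 6.19 ± 1.48% of all gene counts in FFD areas and 8.60 ± 1.38% in NCD areas (SD, n = 3 each), and the diets overlapped. Without Alb the sum was 2.35, 2.78 and 3.31% in FFD areas, against 2.50, 2.59 and 3.07% in NCD areas. The 9 other carriers thus held 2.82 ± 0.478% of counts in FFD areas and 2.72 ± 0.305% in NCD areas, a difference smaller than the spread within either diet. Its direction turned when FFD area 3 or NCD area 1 was left out. Counting error is given as 95% Wilson intervals, which treat each count as independent. Counts of FFD areas exceeded their deduplicated reads, so the FFD intervals may be too narrow. Counting error so taken was small beside the spread of Alb. The intervals of Alb reached at most 0.0284 points to either side, against at most 0.00982 points for any other carrier. For Rbp4 it was closer to the SD. Its interval in FFD area 1, 0.197 to 0.207%, reached 0.00534 points to either side, against an SD among FFD areas of 0.00486 points. Among NCD areas the SD was 0.00723 points, and the interval reached at most 0.00574 points. For Serpina6, with 223 to 571 counts per area, the interval in NCD area 1 was 0.0113 to 0.0142%, about the SD among NCD areas (0.00150 points) to either side. Among FFD areas its SD was 0.00268 points, and the interval in FFD area 1 reached 0.00108 points. The reach of a 95% interval is wider than 1 SE of the count, so interval and SD are not on one scale. In proportion to the others, Alb counts were 1.15, 1.03 and 1.38 times the sum of the other 9 in FFD areas and 2.04, 2.11 and 2.32 times in NCD areas. Other measures of the areas move with these shares. FFD areas held 1077 to 1264 nuclei and NCD areas 1747 to 1940. The counts of FFD areas 1 to 3 were 1.20, 1.51 and 1.01 times their deduplicated reads, while those of the NCD areas were 0.996 to 0.997 times. The part of these measures in the shares was not tested.

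Hepatocytes also need their secretory machinery to release these proteins. Of 36 genes for entry into and exit from the endoplasmic reticulum 2 rose, none fell and 34 did not pass, with a median log2 fold change of 0.03. Over all tested genes 5.94% rose and 11.1% fell. Srp14, a subunit of the signal recognition particle, was at 125 ± 10.6 CPM in FFD areas and 89.1 ± 3.94 CPM in NCD areas (log2 0.49, SE 0.13, adjusted p 0.0173), a call lost without NCD area 1 or NCD area 2 (adjusted p up to 0.0780). Spcs1, of the signal peptidase, was at 0.45 (SE 0.15, adjusted p 0.0457) and kept its call in 12 of 18 alternatives. The receptor that rescues albumin from breakdown, Fcgrt, was at 0.07 (SE 0.14, adjusted p 0.782) and its partner B2m at 0.34 (SE 0.19, adjusted p 0.233).

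Among 11 other serpins, the protease inhibitor family to which Serpina6 and Serpina7 belong, 6 fell and 1 rose, with a median of -0.41, against 11.1% lower, 5.94% higher and a median of -0.11 over all tested genes. Near-identical copies exist in this family, and whether each probe separates them was not tested. Serpina3k, a contrapsin, was at 1364, 1883 and 1650 CPM in FFD areas, against 4284, 4554 and 6545 CPM in NCD areas (log2 -1.65, SE 0.22, adjusted p 1.23e-04). Serpinf2, the plasmin inhibitor, fell by 1.05 (SE 0.18, adjusted p 0.00105). Serpina3n, of the acute phase in mice, was the one that rose, at 335 ± 40.8 CPM in FFD areas and 155 ± 47.9 CPM in NCD areas (log2 1.10, SE 0.19, adjusted p 0.00114). These 3 kept their calls in 18 of 18 alternatives. Over all 12 lists together, 7 of 119 tested genes were higher in FFD and 19 lower, with a median of -0.02. Over all tested genes 5.94% were higher and 11.1% lower. With negative probe scaling the counts were 36 higher and 5 lower. That scaling moved the median of all tested genes to 0.28, and the share of all genes called under it was not counted.

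**Figure D4:**
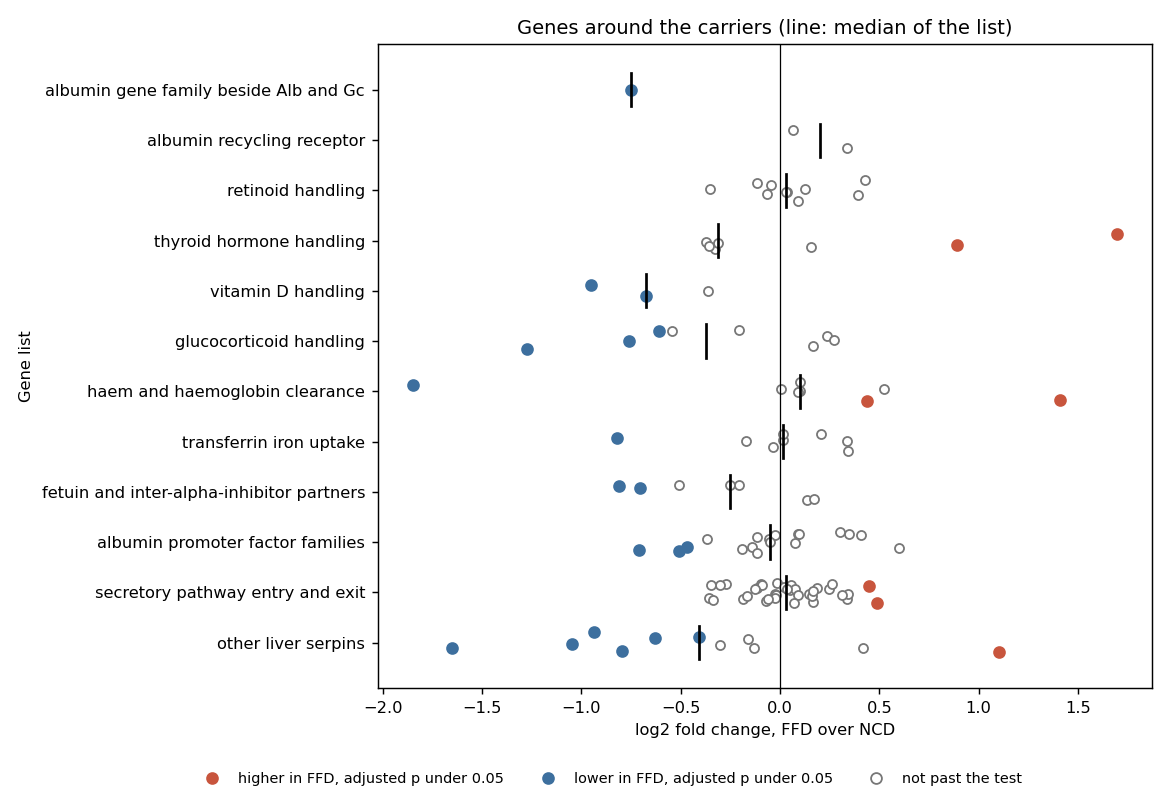
Log2 fold change of FFD over NCD on the x axis for the tested genes of 12 lists around the carriers (rows), red where called higher in FFD, blue where called lower, open where not past the test, with the list's median as a line. Serpina7 at 1.70 and Hp at 1.41 are the points farthest to the right, and Cd163 at -1.85 and Serpina3k at -1.65 those farthest to the left.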

How the data were processed

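The counts, nuclei and reads are as deposited per region by the authors. Expected counts per target after probe quality control were deposited for 19963 targets, whole numbers for all but 4, and again for the 13099 targets of a filter whose rule is not stated. The Q3 signal was deposited as counts divided by each region's 75th percentile times a constant, which matched within 0.0922% over values of 5 or more. Sequencing saturation, not used, is a percent per the file headers, and area and probes per target are other quantities per the file headers. The submitters' processing notes list GRCm38 and edgeR with no role for either. No use was made of the template-free control.

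Counts of the 13095 genes of the filtered list were taken from the full table, since the filtered table differs from it in 1 target and the Q3 signal follows the full table. Non-gene targets (12) were left out, 0.0145 to 0.0192% of counts. Rounded counts were tested with edgeR 4.0.16 (glmQLFit, glmQLFTest, R 4.3.3), diet as the one factor, library sizes scaled by the upper quartile (75th percentile), and p-values adjusted by Benjamini-Hochberg across all 13095 genes with a threshold of 0.05. Levels are CPM on the scaled library sizes. The SE is the absolute log2 fold change over the square root of F. Ratios used exact permutation tests (scipy 1.17.1). The fit was tested on simulated data. Likeness used log2 CPM with a prior count of 2.

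The members and the 12 lists were chosen with earlier results of these data known. All members were named, up to 3 called genes per list by p or the first 2 tested where none passed, and the 5 genes nearest to Alb. A single gene this rule names is not reported here. Genes named beyond this rule (Dab2, Lrp1, Hmox1, Itih1, Itih3, Itih4, Nr3c1, Hsd11b1, Fkbp5, Tsc22d3, Per1 and Tfrc) were chosen after their values were seen. Alternatives were TMM, DESeq2 1.42.0 size factors, total count and negative probe scaling, the DESeq2 Wald test, limma 3.58.1 trend on log2 of the Q3 signal plus 1, limma voom, the robust option of edgeR, filterByExpr, no filter, background subtraction with a floor of 1, leaving out each region, other denominators of the shares, and leaving out area 3 of both diets and the region number as a block, both added after seeing the data.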

Additional observations from a re-analysis of the deposited data

How the results depend on the processing

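Region comments in the segment table number the areas 1 to 3 within each diet, and deviations of same-numbered areas from their diet's mean correlated over genes at only 0.0323, 0.0328 and 0.0856, although all 6 areas were closest to their own number. A fit with that number as a block, added after seeing the data, called 1 of the 9 carriers other than Alb higher (Hpx) and 1 lower (Serpina6, -0.53, adjusted p 0.0157), with 7 list genes higher and 21 lower. It is not among the 18 alternatives counted above. Without the block 1 of the 9 was called higher and 0 lower in FFD. The count of higher calls was 0 with the DESeq2 Wald test and 0 after background subtraction, and 0 to 1 with any 1 area left out. The count of lower calls was 0 to 1 with any 1 area left out and 1 without area 3 of both diets. With negative probe scaling Ttr (0.0810), Rbp4 (0.22), Gc (0.19) and Ambp (0.16) changed sign. After background subtraction Azgp1 (-0.0102) and Trf (-0.0874) did. With 1 area left out Azgp1 ran from -0.0225 to 0.23 and Trf from -0.0676 to 0.15. The genes of the lists, 7 higher and 19 lower, numbered 36 and 5 with negative probe scaling, which moved the median of all tested genes to 0.28. They numbered 4 to 9 higher and 12 to 20 lower with 1 area left out. The log2 ratio of FFD to NCD shares was -0.80 for Alb and 0.05 for the 9 others. Per nucleus it was -0.25 for Alb and 0.64 for the others, over deduplicated reads 0.35 for the others, without the 10 genes of highest share -0.0359, after background subtraction -0.0153, and with 1 area left out -0.0817 to 0.16. The causes were not tested. The within-area ratios kept their direction after background subtraction and with any 1 area left out. Calls of single genes rest on 3 areas per diet and a spread shared across genes.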
